A study of Mus musculus with 6 samples.

Results

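Interleukins are secreted proteins through which immune and tissue cells signal to each other, and each acts through a receptor of 1 or more chains on the receiving cell. The 79 genes described here were all protein-coding genes of the deposited count table whose symbol begins with Il and a digit, except the 5 genes of the IL-6 family (Il6, Il6ra, Il6st, Il11 and Il11ra1), which were left out. They were 79 of 54532 genes in the table and carried 77 different symbols, since 3 entries were named Il11ra2. By role, 35 encoded ligands, 37 encoded receptor chains, 6 encoded inhibitors (soluble or decoy receptors, binding proteins and receptor antagonists) and 1, Il4i1, encoded an enzyme named for its induction by IL-4. By cytokine family, 20 belonged to the IL-1 family, 17 to the family that signals through or beside the common gamma chain, 4 to the family of the common beta chain, 8 to the IL-12 family, 11 to the IL-10 family, 11 to the IL-17 family and 8 to none of these.

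The tissue was eWAT, epididymal white fat, a visceral depot of male mice, from 3 control mice and 3 cachectic mice of the C57BL/6 strain. Per the methods of the study, the mice were males of 6 to 10 weeks, and tissue was taken on day 21. The cachectic mice had received LLC cells (Lewis lung carcinoma, derived from a mouse lung tumor) under the skin, and a loss of over 20% of body weight defined cachexia. What the control mice received was not given in the sources used here. The model therefore rests on 1 tumor line at 1 time point, and a subcutaneous tumor does not grow in the lung. The labels give 3 replicates in each group without saying that they came from separate cultures or litters, so p-values measure the spread between these samples.

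IL-1 family cytokines act through receptors that recruit MyD88 and activate NF-kB, and the family carries its own brakes, namely a receptor antagonist, a decoy receptor and a binding protein for IL-18. Receptors of the common gamma chain, IL-10 and IL-12 families signal through JAK kinases and STAT factors, and IL-17 receptors signal through the adaptor ACT1. In adipose tissue, IL-33 with its receptor ST2 and IL-4 with its receptor are known for maintaining regulatory T cells, innate lymphoid cells and alternatively activated macrophages.

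The total count per library was between 14928766 and 18855546, and the highest of the cachectic mice (17278966) was below the lowest of the controls (18475204). Levels of 1 gene across mice are given as CPM, the counts scaled by edgeR's TMM factors to a fixed library size, and levels of different genes are compared by the deposited FPKM, which also accounts for gene length. Fold changes are cachectic over control mice on the log2 scale, with the standard error (SE) of the fit and an adjusted p from edgeR's quasi-likelihood test with Benjamini-Hochberg adjustment over all 16003 genes tested. Control replicate 1 stood apart from the other controls, which were closer to each other than to it, and without it 4 interleukin genes were higher and 3 lower. Il1f9 and Il9r then lost their calls, and Il13ra1 gained one. Adipocyte markers were abundant in this fat tissue, with summed levels of 24950 to 31770 CPM in control mice and 28140 to 42560 CPM in cachectic mice. The largest parts were Cfd (means of 10160 and 13120 CPM) and Fabp4 (7747 and 9933 CPM). All 10 markers were tested, and 5 estimates were negative. Of the 10, 2 were significantly higher and 1 lower, against 9.0% and 8.63% of all genes. The lower 1 was Lep (log2 fold change -3.14, edgeR adjusted p = 0.0475). Plin1 fell without overlap (-1.44) but did not pass (edgeR adjusted p = 0.057). In bulk tissue, fewer cells of a type and less RNA per cell cannot be told apart, and this holds for every gene below.

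Of the 79 genes, 42 had enough counts to be tested. Of the tested genes, 4 were significantly higher in cachectic mice (Il4ra, Il1r2, Il22ra2 and Il1f9), 4 were significantly lower (Il17d, Il2rb, Il1rl2 and Il9r), and 34 did not pass. Of all 16003 genes tested, 17.6% passed in either direction, 9.0% as higher and 8.63% as lower, so that the share of 19.05% (8 of 42) among the interleukin genes was close to that of genes in general. The median log2 fold change was -0.04 over the 42 genes and -0.0031 over all genes. Values of the groups did not overlap for 19 of the 42 genes (45.24%), against 40.5% of all genes. Receptors supplied 27 of the tested genes, 1 higher and 3 lower. The 11 tested ligands held 1 higher and 1 lower gene, and the 4 tested inhibitors held 2 higher genes, Il1r2 and Il22ra2, and no lower one.

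**Figure D1:**
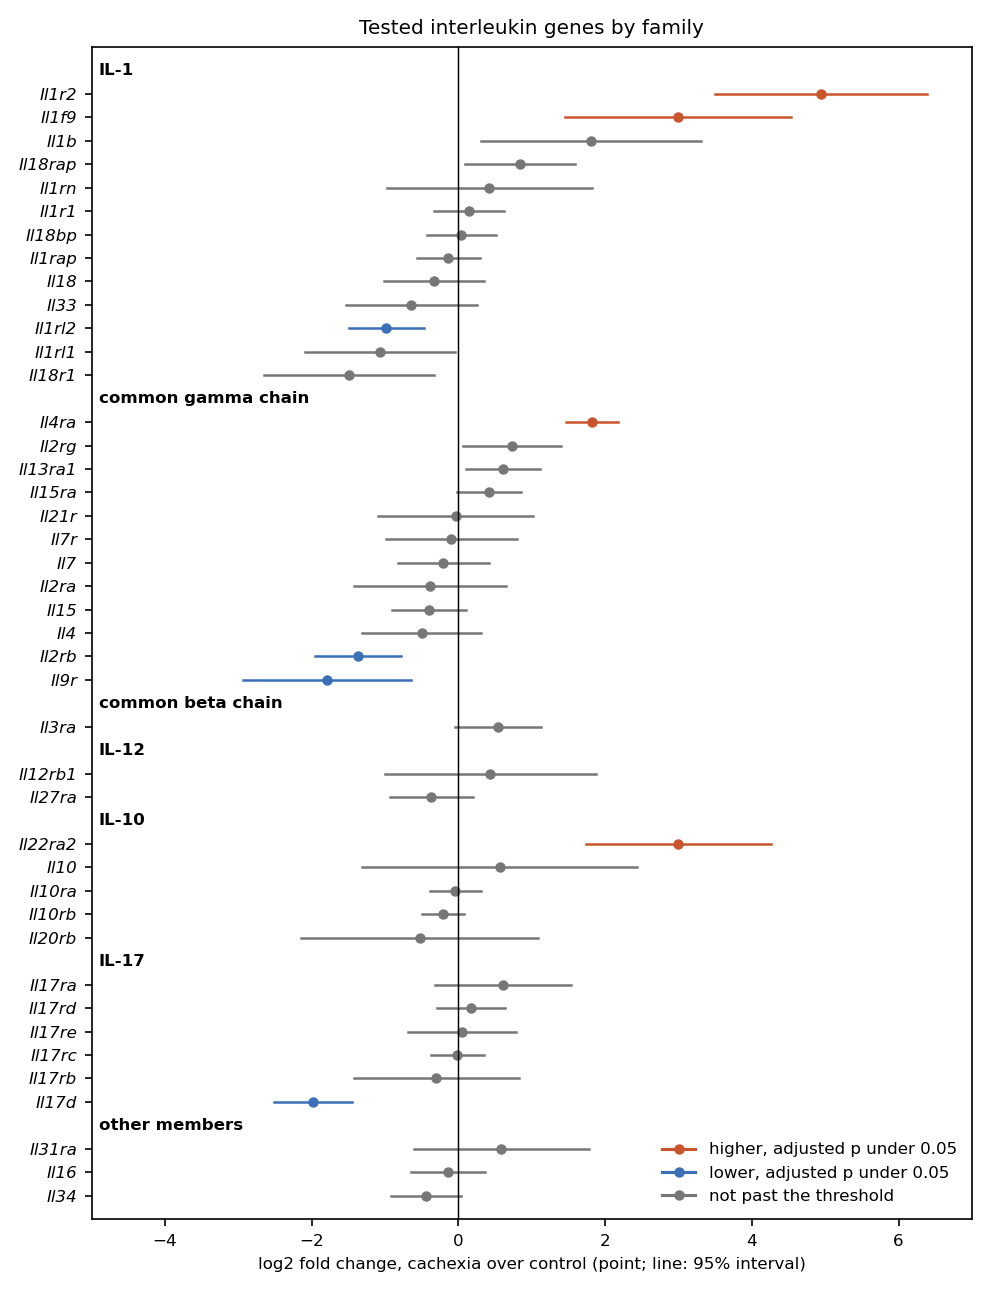
Log2 fold change of cachectic over control mice (x axis) for the 42 tested interleukin genes (y axis), grouped by cytokine family. Points are estimates, lines are 95% intervals, and color marks the 4 genes significantly higher and the 4 significantly lower; the estimates ran from -1.98 (Il17d) to 4.94 (Il1r2).

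The 250 bases before the RefSeq start site (GRCm38.p6) are shown for 5 of the 8 genes that passed. Il4ra, Il1r2 and Il17d were chosen because they passed in every alternative that tested them, and Il1f9 and Il1rl2 because they encode a ligand and its receptor that changed in opposite directions. Capitals mark matches, on either strand, to 4 motifs: STAT (TTCNNNGAA), NF-kB (GGG and TTTCC with any 2 bases between), C/EBP (TTGCNNAA) and the TATA box (TATAAA).
Il4ra, chr7:125552021-125552270, plus strand: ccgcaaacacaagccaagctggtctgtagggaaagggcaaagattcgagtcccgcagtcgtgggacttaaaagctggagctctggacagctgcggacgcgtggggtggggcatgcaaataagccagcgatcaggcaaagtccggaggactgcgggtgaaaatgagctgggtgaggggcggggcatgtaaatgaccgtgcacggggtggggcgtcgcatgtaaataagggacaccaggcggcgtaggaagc
Il17d, chr14:57524579-57524828, plus strand: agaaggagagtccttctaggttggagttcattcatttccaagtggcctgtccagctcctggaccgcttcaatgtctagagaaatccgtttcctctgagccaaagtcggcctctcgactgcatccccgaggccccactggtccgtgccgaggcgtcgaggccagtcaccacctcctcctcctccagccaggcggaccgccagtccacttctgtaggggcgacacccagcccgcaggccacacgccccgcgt
Il1r2, chr1:40085843-40086092, plus strand: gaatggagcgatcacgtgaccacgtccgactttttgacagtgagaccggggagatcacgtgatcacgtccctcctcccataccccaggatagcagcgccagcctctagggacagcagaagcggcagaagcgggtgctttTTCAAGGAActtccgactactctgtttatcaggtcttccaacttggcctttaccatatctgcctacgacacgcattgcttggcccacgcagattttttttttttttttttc
Il1f9, chr2:24186226-24186475, plus strand: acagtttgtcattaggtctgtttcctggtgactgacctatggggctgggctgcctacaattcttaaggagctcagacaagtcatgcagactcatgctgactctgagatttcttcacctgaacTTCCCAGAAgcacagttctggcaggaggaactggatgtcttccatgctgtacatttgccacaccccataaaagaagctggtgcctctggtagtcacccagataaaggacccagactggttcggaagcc
Il1rl2, chr1:40324339-40324588, plus strand: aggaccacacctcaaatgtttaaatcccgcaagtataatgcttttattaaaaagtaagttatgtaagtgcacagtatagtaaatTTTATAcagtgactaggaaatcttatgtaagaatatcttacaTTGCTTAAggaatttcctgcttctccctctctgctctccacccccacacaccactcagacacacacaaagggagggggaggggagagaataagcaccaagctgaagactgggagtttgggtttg

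The stretches of Il4ra and Il17d held none of the 4 motifs. Il1r2 held the STAT letters TTCAAGGAA 111 bases before its start, and Il1f9 held TTCCCAGAA 128 bases before its start. The stretch before Il1rl2 held the C/EBP letters TTGCTTAA 124 bases before the start and a TATA box on the opposite strand (TTTATA) 166 bases before it. The same length before the start held the STAT letters in 7.02% of 32851 RefSeq promoters, the NF-kB letters in 1.41%, the C/EBP letters in 9.56% and the TATA box in 12.4%. Of the 31 tested interleukin genes with such a promoter, 4 held STAT, 1 NF-kB, 8 C/EBP and 4 TATA box letters. A match is a description of letters and not a bound site, and the RefSeq start of Il1r2 lay 12014 bases from the gene start in the deposited files.

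The common gamma chain family, whose receptors share Il2rg or pair with IL-4 receptor alpha, held the most significant change. Il4ra, which binds IL-4 and joins the IL-13 receptor as a signaling chain, stood at 63.9, 71.0 and 59.4 CPM in control replicates 1, 2 and 3 and at 194, 242 and 251 CPM in cachexia replicates 1, 2 and 3. Every cachectic mouse was above every control mouse, with a log2 fold change of 1.82 (SE 0.15, 3.53-fold, edgeR quasi-likelihood test, adjusted p = 0.00118). With 3 mice in each group, a two-sided exact permutation test on 1 gene gives at best 0.1, which it gave for each gene whose groups did not overlap. By FPKM, Il4ra ranked 3 among the 42 tested interleukin genes in control mice (10.7 ± 0.94, SD, n = 3) and 1 in cachectic mice (37.3 ± 4.88, SD, n = 3). It supplied 12.03% ± 1.00 (SD, n = 3) of all interleukin counts in control mice and 32.0% ± 1.76 (SD, n = 3) in cachectic mice. The summed level of the 79 genes was 538 ± 18.6 CPM in control and 714 ± 77.2 CPM in cachectic mice (SD, n = 3 each), and without Il4ra it was 473.5 ± 17.2 and 485 ± 50.3 CPM.

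The chains that join IL-4 receptor alpha changed less. Il13ra1, its partner in the type II receptor, measured 24.0, 15.1 and 14.6 CPM in control mice and 26.3, 30.6 and 24.7 CPM in cachectic mice. These groups did not overlap, but the difference did not pass (log2 fold change 0.60, SE 0.22, edgeR adjusted p = 0.0941); without control replicate 1, the highest of its group, it did (0.88, adjusted p = 0.0206, in a range of 0.0206 to 0.273 over the alternatives). Il2rg, the common gamma chain, measured 8.38, 8.88 and 7.65 CPM in control mice and 8.11, 16.1 and 17.2 CPM in cachectic mice. Cachexia replicate 1 lay among the controls, and the difference did not pass (log2 fold change 0.73, SE 0.29, edgeR adjusted p = 0.119), whereas it passed without that mouse (1.00, adjusted p = 0.0235, in a range of 0.0235 to 0.283). Per length, the ratio of Il4ra to Il13ra1 FPKM was 1.65 to 2.91 in control mice and 4.56 to 6.28 in cachectic mice, and that of Il4ra to Il2rg was 3.03 to 3.18 and 5.78 to 9.52. The ligand Il4 was low, with 1.81, 1.66 and 1.25 CPM in control mice and 1.05, 1.17 and 1.11 CPM in cachectic mice (log2 fold change -0.50, SE 0.35, adjusted p = 0.352). Il13, the other ligand of this receptor, had 6 counts in the control mice together and 0 in the cachectic mice. At these totals a change in Il13 was not detectable.

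Il2rb, the beta chain shared by the IL-2 and IL-15 receptors and carried by NK cells and T cells, moved the other way. It stood at 8.43, 9.51 and 10.4 CPM in control mice and at 2.80, 4.05 and 4.13 CPM in cachectic mice. The groups did not overlap, and the log2 fold change was -1.37 (SE 0.25, edgeR adjusted p = 0.0117); it did not pass without control replicate 3 (adjusted p = 0.0636, in a range of 2.01e-05 to 0.0636). The ratio of Il2rg to Il2rb FPKM was 1.32 to 1.79 in control mice and 5.20 to 7.50 in cachectic mice. Il2ra, the chain that raises affinity for IL-2, spanned 5.07 to 9.11 CPM in control mice and 2.95 to 9.77 CPM in cachectic mice, with a log2 fold change of -0.39 (SE 0.45, adjusted p = 0.585).

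Il15, which is presented to the beta chain by Il15ra, measured 8.43, 8.37 and 8.61 CPM in control mice and 5.25, 7.37 and 6.69 CPM in cachectic mice. Il15ra measured 28.9, 38.4 and 36.1 CPM in control mice and 39.4, 57.8 and 41.1 CPM in cachectic mice. Neither pair of groups overlapped and neither difference passed in edgeR (Il15, log2 fold change -0.40, SE 0.22, adjusted p = 0.24; Il15ra, 0.42, SE 0.19, adjusted p = 0.159). Their FPKM ratio, Il15ra over Il15, was 1.74 to 2.33 in control mice and 3.13 to 3.99 in cachectic mice.

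Il9r, the receptor chain for IL-9, had the lowest mean FPKM of the genes that passed. Its level was 0.753, 0.860 and 1.25 CPM in control mice and 0.175, 0.246 and 0.393 CPM in cachectic mice, without overlap. The log2 fold change of -1.79 (SE 0.50, edgeR adjusted p = 0.0438) passed in 2 of 15 alternatives, with adjusted p between 0.0437 and 0.169, so that every library left out in turn ended the call. Il9 itself had no count in any mouse. Of the 12 tested genes of this family, 7 had groups without overlap, as did 40.5% of all genes. Il7, Il7r and Il21r had log2 fold changes between -0.21 and -0.04, none of which passed, although Il21r is the next protein-coding gene after Il4ra on chromosome 7 (125603429 to 125633570, 23954 bases beyond it).

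**Figure D2:**
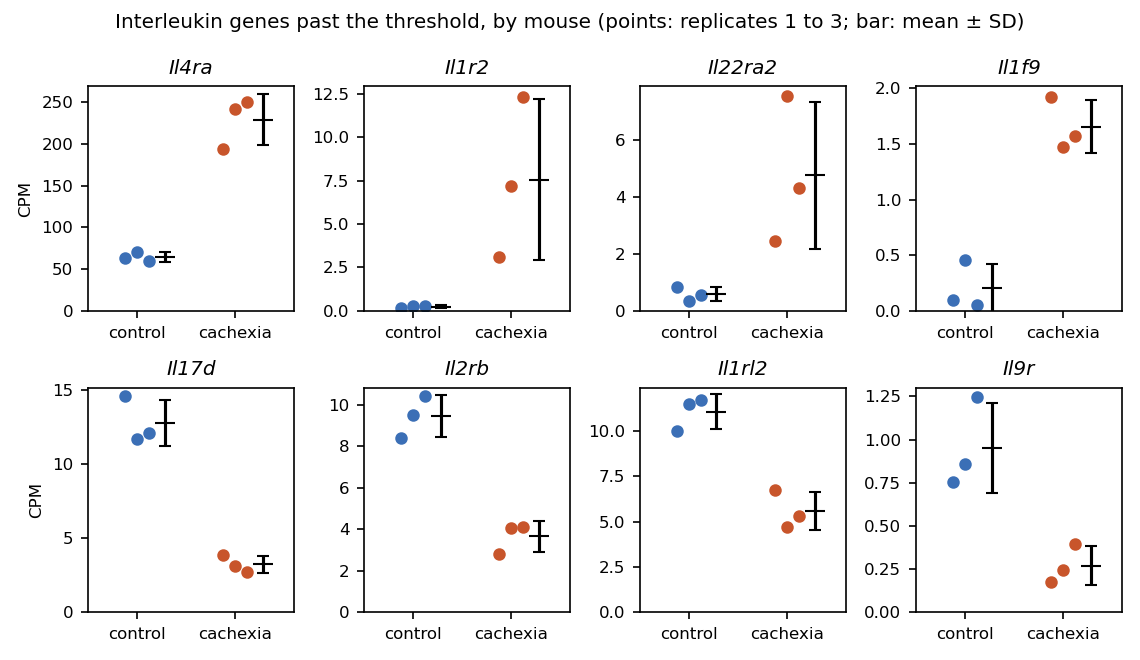
CPM (y axis, from 0, a separate scale in each panel) of the 8 interleukin genes that passed, by mouse; points are replicates 1 to 3 of each group and the bar is the mean ± SD. No control point overlaps a cachexia point in any panel, and the bars of Il1r2 and Il22ra2 are widest relative to their means among the cachectic mice.

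In the IL-1 family, 13 of 20 genes were tested, and 2 were higher and 1 was lower. Il1r2, the decoy receptor that binds IL-1 without signaling, was close to 0 in control mice, with 0.151, 0.287 and 0.283 CPM (3, 5 and 5 counts). In the cachectic mice it reached 3.09, 7.19 and 12.3 CPM (53, 117 and 188 counts). The log2 fold change of 4.94 (SE 0.63, 30.7-fold, edgeR adjusted p = 0.00356), the largest of the 42 genes, had a 95% interval of 3.49 to 6.39.

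Il1r1, the signaling receptor for IL-1, ranked 6 in control and 5 in cachectic mice among the 42 tested interleukin genes (8.72 ± 0.40 FPKM in control and 9.56 ± 2.95 FPKM in cachectic mice, SD, n = 3) and measured 58.0, 53.4 and 57.2 CPM in control mice against 53.1, 49.3 and 84.4 CPM in cachectic mice. These groups overlapped (log2 fold change 0.15, SE 0.21, edgeR adjusted p = 0.658). The ratio of Il1r2 to Il1r1 FPKM was 0.00866 to 0.0179 in control mice and 0.194 to 0.487 in cachectic mice, so that the decoy remained below the signaling receptor per length in every mouse. Il1rap, the accessory chain that joins Il1r1, ST2 and the IL-36 receptor, was 9.73, 8.998 and 10.9 CPM in control mice and 9.62, 8.54 and 8.79 CPM in cachectic mice (log2 fold change -0.14, SE 0.18, adjusted p = 0.642).

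Il1b, a secreted IL-1 made by myeloid cells, measured 0.903, 4.59 and 1.30 CPM in control mice and 10.6, 9.21 and 3.87 CPM in cachectic mice. Control replicate 2 was above cachexia replicate 3, and the log2 fold change of 1.80 (SE 0.65, edgeR adjusted p = 0.0926) did not pass; it passed without control replicate 2 (2.83, adjusted p = 0.0319) and with DESeq2 (adjusted p = 0.0201), in a range of 0.0201 to 0.247. Il1a, the other IL-1, had 13 counts in the control mice together and 8 in the cachectic mice and was not tested. Il1rn, the receptor antagonist, spanned 2.11 to 2.78 CPM in control mice and 0.933 to 6.26 CPM in cachectic mice (log2 fold change 0.42, SE 0.60, adjusted p = 0.663).

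Il1f9, which encodes IL-36 gamma, measured 0.1003, 0.459 and 0.0567 CPM in control mice (2, 8 and 1 counts) and 1.93, 1.47 and 1.57 CPM in cachectic mice (33, 24 and 24 counts). All 3 cachectic mice were above all controls, with a log2 fold change of 2.99 (SE 0.66, 95% interval 1.46 to 4.53, edgeR adjusted p = 0.0218). The call was lost without control replicate 1 (adjusted p = 0.0546), control replicate 3 (0.0828) or cachexia replicate 1 (0.0633), in a range of 0.00166 to 0.0828. Control replicate 2 held 8 of the 11 control counts, and without it the log2 fold change was 4.26 (adjusted p = 0.0177). Its receptor Il1rl2 was 9.98, 11.5 and 11.7 CPM in control mice and 6.77, 4.73 and 5.31 CPM in cachectic mice. The receptor fell in all 3 cachectic mice, with a log2 fold change of -0.98 (SE 0.22, edgeR adjusted p = 0.0224). It did not pass without control replicate 2 (0.0808), control replicate 3 (0.0973) or cachexia replicate 2 (0.0584), or with replicate number as a block (0.0573). Over the alternatives its adjusted p ranged from 0.000979 to 0.0973. The other IL-36 ligands, Il1f6 and Il1f8, and the IL-36 receptor antagonist Il1f5 had no count in any mouse.

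IL-33, an alarmin released from damaged stromal cells, and its receptor Il1rl1 (ST2) had negative estimates that did not pass. Il33 measured 20.5, 14.2 and 16.9 CPM in control mice and 14.6, 13.6 and 4.72 CPM in cachectic mice (log2 fold change -0.64, SE 0.39, edgeR adjusted p = 0.28), and the groups overlapped. Il1rl1 measured 9.93, 11.98 and 11.8 CPM in control mice and 5.71, 2.03 and 8.39 CPM in cachectic mice, without overlap (log2 fold change -1.07, SE 0.44, edgeR adjusted p = 0.133).

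The IL-18 receptor chains had estimates of opposite sign. Il18r1, which binds IL-18, was 5.47, 3.15 and 3.91 CPM in control mice and 1.92, 0.553 and 1.97 CPM in cachectic mice, without overlap (log2 fold change -1.49, SE 0.50, edgeR adjusted p = 0.0773). It passed with DESeq2 (adjusted p = 0.0226) and on log2 FPKM with a pseudocount of 1 (0.0494), in a range of 0.0226 to 0.167. Il18rap, the accessory chain, was 2.51, 2.24 and 2.78 CPM in control mice and 3.38, 4.12 and 5.97 CPM in cachectic mice (log2 fold change 0.84, SE 0.32, edgeR adjusted p = 0.112). Il18 itself and its binding protein Il18bp had log2 fold changes of -0.34 (SE 0.29, adjusted p = 0.459) and 0.04 (SE 0.20, adjusted p = 0.908), and the read counts of both are uncertain because they overlap Bco2 and Numa1 on the other strand. Genes like Il1rl1 and Il18r1, with groups that did not overlap and a log2 change of 1 or more in size but without passing, made up 4.0% of all tested genes.

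Of the receptor genes of this family, 6 lie next to each other on the plus strand of chromosome 1, the decoy Il1r2 among them. In order they are Il1r2, Il1r1, Il1rl2, Il1rl1, Il18r1 and Il18rap (40074079 to 40551705, coordinates of the deposited files). No other protein-coding gene lies within these 478 kb. Elsewhere, Il1rap lies on chromosome 16, and Il1rapl1 and Il1rapl2 lie on chromosome X. Neighbors among the 6 differed widely in their change. Along the chromosome the log2 fold changes were 4.94, 0.15, -0.98, -1.07, -1.49 and 0.84, of which the first and the third passed. The groups did not overlap for 5 of the 6 genes, the exception being Il1r1, and did not overlap for 40.5% of all genes. This arrangement was chosen for description after its values were seen. On chromosome 2, Il1f9 (24186476 to 24193568) lies in the same way between Il1f8 and Il1f6, which had no counts.

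**Figure D3:**
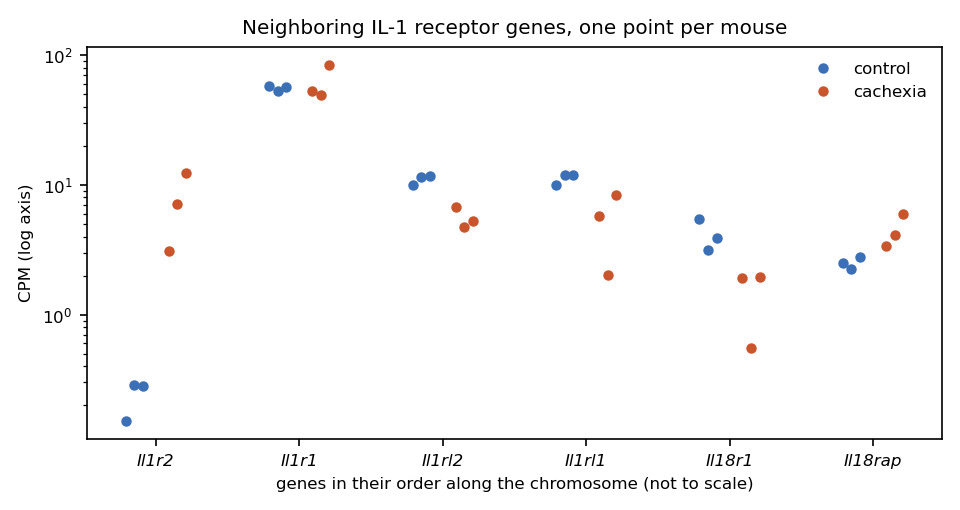
CPM (y axis, log scale) of 6 neighboring IL-1 family receptor genes in their order along chromosome 1 (x axis, not to scale), 1 point per mouse. Il1r2 is higher in every cachectic mouse, Il1rl2, Il1rl1 and Il18r1 are lower in every cachectic mouse, and the points of Il1r1 overlap.

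In the IL-17 family, Il17d fell and the receptor chains did not pass. Il17d, a family ligand made mainly outside the immune system, stood at 14.6, 11.7 and 12.1 CPM in control mice and at 3.85, 3.13 and 2.75 CPM in cachectic mice. Each cachectic mouse was below each control, with a log2 fold change of -1.98 (SE 0.23, 3.94-fold lower, edgeR adjusted p = 0.0028). By FPKM, Il17d ranked 4 among the tested interleukin genes in control mice (9.93 ± 1.24, SD, n = 3) and 18 in cachectic mice (2.49 ± 0.43, SD, n = 3). The gene lies on chromosome 14 (57524777 to 57543166) and overlaps no other gene of the table.

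The other 5 IL-17 ligands had too few counts to test, with at most 5 counts in a library. Il17rc, the receptor chain with the highest FPKM of the family (13.6 ± 2.04 in control and 13.3 ± 1.34 in cachectic mice, SD, n = 3), measured 38.7, 40.9 and 30.4 CPM in control mice and 36.0, 32.8 and 40.1 CPM in cachectic mice. These values overlapped (log2 fold change -0.01, SE 0.15, 95% interval -0.37 to 0.34, edgeR adjusted p = 0.96). Il17ra, the chain common to IL-17 receptors, measured 28.6, 26.0 and 22.3 CPM in control mice and 23.3, 25.0 and 69.3 CPM in cachectic mice. Cachexia replicate 3 alone was outside the range of the others, and the log2 fold change was 0.61 (SE 0.40, edgeR adjusted p = 0.323) with it and -0.08 (adjusted p = 0.749) without it. Il17ra was named after its values were seen. The remaining receptor chains, Il17rb, Il17rd and Il17re, had log2 fold changes between -0.30 and 0.17, and none passed.

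In the IL-10 family, Il22ra2 was the gene that passed. It encodes the secreted IL-22 binding protein, which holds IL-22 away from its receptor, and measured 0.853, 0.344 and 0.567 CPM in control mice and 2.45, 7.55 and 4.33 CPM in cachectic mice. All cachectic mice were above all controls, with a log2 fold change of 3.00 (SE 0.54, 7.98-fold, edgeR adjusted p = 0.0111). Without control replicate 3 it did not pass (adjusted p = 0.0564, in a range of 5.20e-06 to 0.0564). Il22 had no count in any mouse, so that the ligand that this protein binds was not detected. Il22ra1, the signaling chain for IL-22, had 40 counts in control mice, 32 of them in control replicate 1, and 16 in cachectic mice, and was not tested.

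The chains of the IL-10 receptor did not pass. Il10rb, the chain shared by IL-10 and IL-22 receptors, was 32.3, 35.2 and 37.9 CPM in control mice and 30.6, 29.1 and 31.1 CPM in cachectic mice (log2 fold change -0.21, SE 0.12, 95% interval -0.50 to 0.07, edgeR adjusted p = 0.257). Il10ra, which binds IL-10, had a log2 fold change of -0.04 (SE 0.15, 95% interval -0.39 to 0.31, adjusted p = 0.873). Il10, which restrains inflammatory cytokine production, spanned 0.283 to 0.688 CPM in control mice and 0.131 to 1.66 CPM in cachectic mice (log2 fold change 0.56, SE 0.81, adjusted p = 0.665). Il20rb, a receptor chain for IL-20 family cytokines named after its values were seen, was 25.1 CPM in control replicate 1 but 3.96 and 3.68 CPM in the other controls, and 6.24, 8.05 and 8.46 CPM in cachectic mice. Control replicate 1 decided its sign, with a log2 fold change of -0.53 (adjusted p = 0.634) with that mouse and 0.99 (adjusted p = 0.0503) without it.

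Of the remaining families, no gene passed. Il3ra, which binds IL-3 and pairs with the common beta chain, measured 9.58, 13.5 and 14.1 CPM in control mice and 14.4, 15.3 and 24.3 CPM in cachectic mice, without overlap (log2 fold change 0.54, SE 0.25, edgeR adjusted p = 0.179). Il27ra, the IL-27 receptor, measured 6.07, 6.31 and 6.01 CPM in control mice and 4.32, 5.77 and 4.13 CPM in cachectic mice, without overlap (log2 fold change -0.37, SE 0.25, adjusted p = 0.328). Il34, a ligand of the CSF1 receptor and the interleukin gene with the highest FPKM in control mice (14.0 ± 1.87, SD, n = 3), was 31.5, 27.97 and 24.1 CPM in control mice and 23.7, 14.8 and 22.9 CPM in cachectic mice. Its groups were next to each other without overlap (log2 fold change -0.44, SE 0.21, adjusted p = 0.175). Il31ra, the IL-31 receptor chain, spanned 0.953 to 1.78 CPM in control mice and 0.875 to 3.08 CPM in cachectic mice (log2 fold change 0.58, SE 0.51, adjusted p = 0.463). Il27ra overlaps Palm3 on the other strand and Il31ra overlaps the pseudogene Gm3226 on its own strand, so the read counts of both are uncertain.

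Per length, 27 tested interleukin genes had a mean FPKM of at least 1 in control mice and 25 in cachectic mice. In control mice the order began with Il34 (14.0 ± 1.87), Il17rc (13.6 ± 2.04), Il4ra (10.7 ± 0.94), Il17d (9.93 ± 1.24) and Il10rb (9.11 ± 0.72 FPKM, SD, n = 3 each). Differences between neighbors in this order were not tested. In cachectic mice it began with Il4ra (37.3 ± 4.88 FPKM, SD, n = 3), which stood clear of Il17rc (13.3 ± 1.34), followed by Il34 (10.2), Il15ra (10.1) and Il1r1 (9.56 FPKM). Il1r2 moved from rank 40 of 42 to rank 14.

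**Figure D4:**
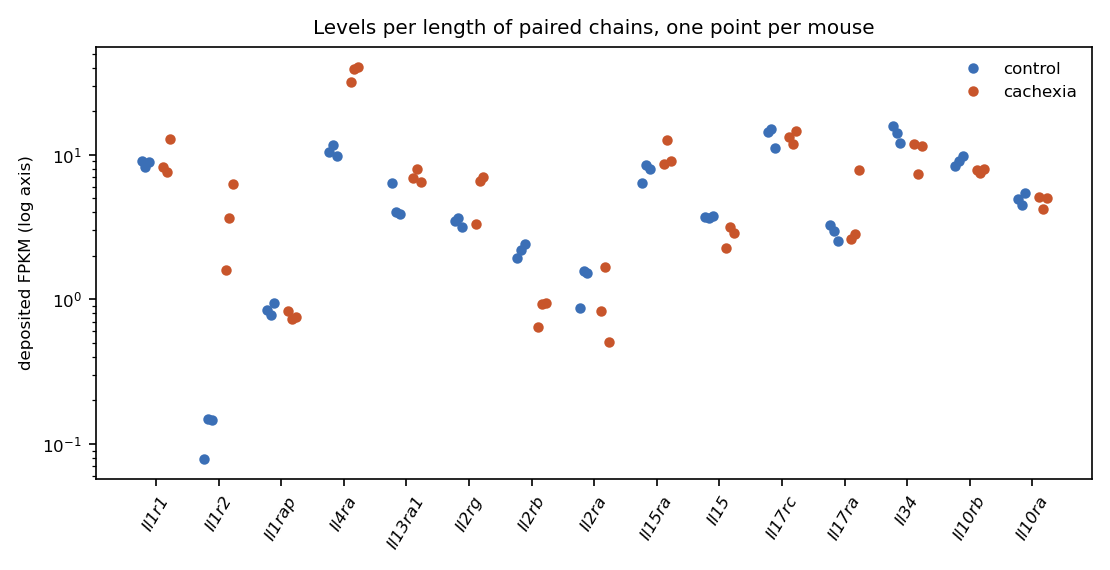
Deposited FPKM (y axis, log scale) of 15 interleukin receptor chains and ligands (x axis), 1 point per mouse, with control and cachectic mice side by side. Il4ra rises above all other chains in cachectic mice, Il1r2 rises toward but stays below Il1r1, and Il2rb, below Il2rg in every mouse, lies farther below it in cachectic mice.

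The 37 genes that were not tested had little signal. No mouse had a count for 13 of them, among them Il3, Il9, Il20, Il22, Il24 and Il31, and 12 more had at most 10 counts in all 6 libraries together. The highest count of any of them in 1 library was 32 (Il22ra1). Tested without the filter, none of the 24 with counts passed, and 0 had an unadjusted p under 0.05 in edgeR. In the IL-12 family, Il12a, Il12b, Il23a and Il27 had 8, 10, 10 and 5 counts in the control mice together and 3, 1, 3 and 20 counts in the cachectic mice. Il5, the eosinophil growth factor, had 13 and 1 counts, and its receptor chain Il5ra had 9 and 1. Differences between such totals were not detectable at this depth.

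Genes that act with the interleukins but lie outside the naming rule were read from 5 lists of partner, signaling and target genes. Of 48 such genes, 47 were tested, 8 were higher and 2 were lower, against 9.0% and 8.63% of all genes, and the median log2 fold change was 0.10. The 2 lower genes, Csf1 and Mrc1, both lost their call without control replicate 2, control replicate 3 or cachexia replicate 3. Csf2rb, the common beta chain that joins Il3ra and Il5ra, measured 55.7, 77.7 and 56.7 CPM in control mice and 235, 322 and 177 CPM in cachectic mice. Its near-identical neighbor Csf2rb2, which serves IL-3 in mice, measured 24.5, 28.1 and 23.2 CPM and 119, 190.4 and 77.8 CPM. Both rose in all 3 cachectic mice (Csf2rb, log2 fold change 1.95, SE 0.25, edgeR adjusted p = 0.00356; Csf2rb2, 2.35, SE 0.31, adjusted p = 0.00382), although counts may be split between such similar genes. Csf1, the other ligand beside Il34 of the CSF1 receptor, fell (log2 fold change -0.97, SE 0.25, adjusted p = 0.0354).

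Downstream of the receptors, Jak3, the kinase bound to the common gamma chain, measured 50.7, 58.5 and 45.3 CPM in control mice and 104, 124 and 118 CPM in cachectic mice. It rose 2.24-fold (edgeR adjusted p = 0.00326) and was the only 1 of 10 JAK-STAT genes to pass, a share below the 17.6% of all genes. Stat6, the factor through which IL-4 receptor alpha acts, was 112, 125 and 117 CPM in control mice and 107, 107 and 105 CPM in cachectic mice and did not pass. Of 8 target genes of IL-4 and IL-13 in mouse macrophages, Chil3 was higher (log2 fold change 3.28, SE 0.73, adjusted p = 0.022), Mrc1 was lower (-0.90, SE 0.20, adjusted p = 0.021) and 6 did not pass. The share that passed was 25.0%, against 17.6% of all genes, with 1 gene in each direction. The median log2 fold change of the 8 genes was -0.53, and 5 estimates were negative. Arg1 spanned 0.502 to 17.3 CPM in control mice, and Retnla spanned 342 to 545 CPM in control mice and 9.34 to 229 CPM in cachectic mice without passing.

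Of 6 genes of IL-17 signaling, 3 were higher, namely Cebpd (log2 fold change 2.13, SE 0.35, edgeR adjusted p = 0.00807), Nfkbia (1.68, SE 0.19, adjusted p = 0.00265) and Nfkbiz (1.26, SE 0.21, adjusted p = 0.00872). Other pathways, including that of IL-1, also use these genes. The share of the 6 that passed was 50.0%, against 17.6% of all genes. Of 14 genes of IL-1 processing and signaling, Gsdmd, the pore protein through which mature IL-1 beta leaves the cell, was higher (log2 fold change 0.70, SE 0.14, edgeR adjusted p = 0.0172) and 13 did not pass. The share of the 14 that passed was 7.14%, against 17.6% of all genes.

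**Figure D5:**
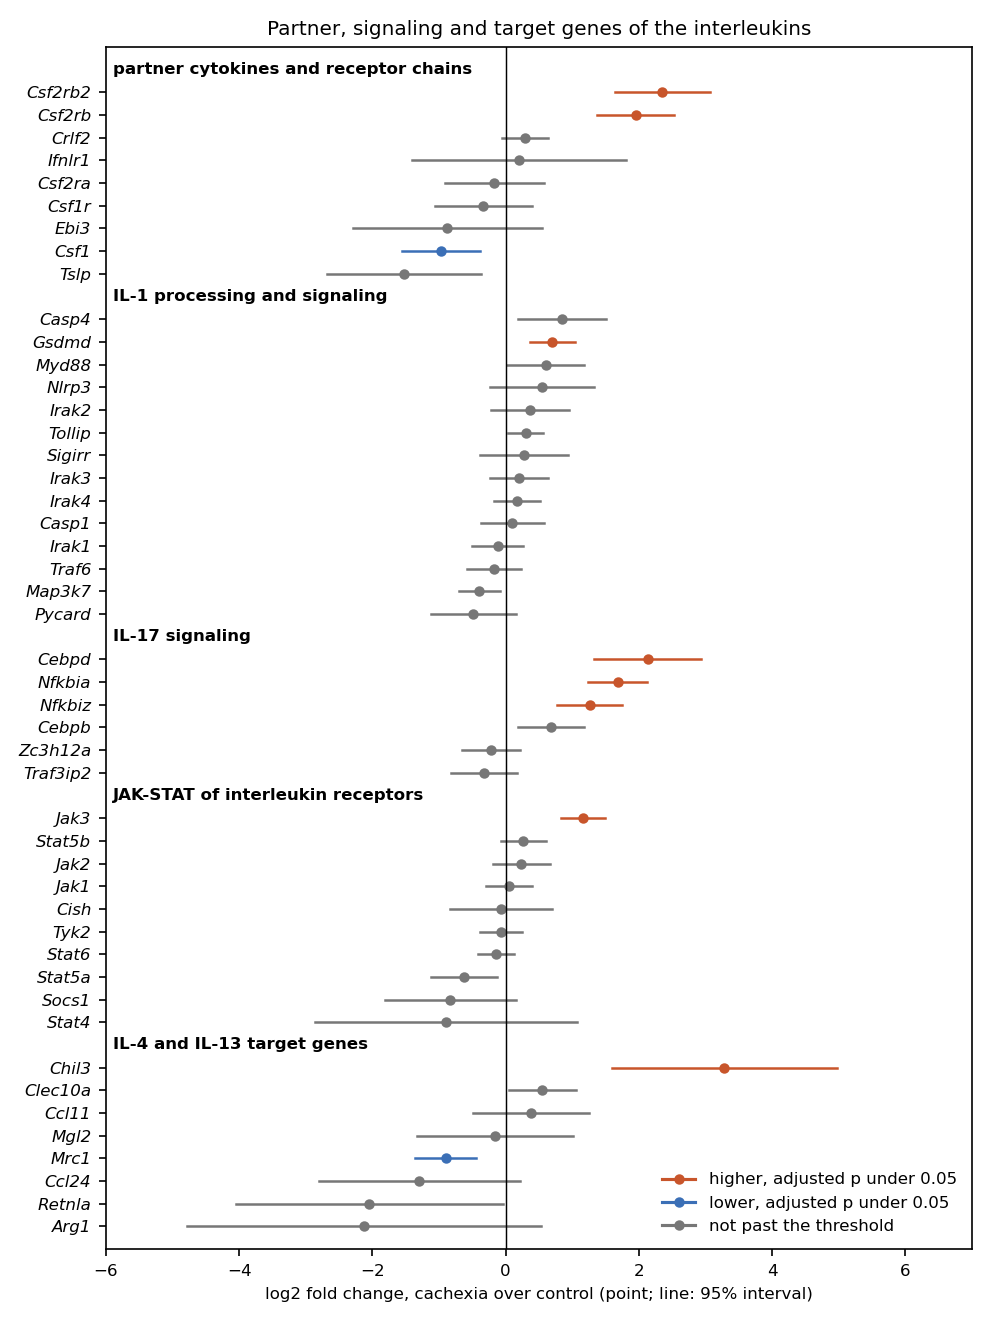
Log2 fold change of cachectic over control mice (x axis) for 47 tested partner, signaling and target genes of the interleukins (y axis), grouped by list; points are estimates and lines are 95% intervals. Color marks the 8 genes higher and the 2 lower, and Csf2rb2 and Csf2rb lead the partner chains.

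Markers of immune cells also differed between the groups, and whether they vary with the interleukin genes from mouse to mouse was not tested. For the counts of markers in this paragraph and the next, 9.0% of all genes tested were higher and 8.63% were lower. Of 16 tested neutrophil markers, 14 were higher and 0 lower, with a median log2 fold change of 3.45. Summed over 18 markers, their level was 533 to 629 CPM in control mice and 614 to 1718 CPM in cachectic mice. Without Lrg1, the most abundant of them, the other 17 summed to 39.1 to 59.9 CPM in control mice and 294 to 851 CPM in cachectic mice, and Ly6g and Stfa2l1 were at 0 in all 3 control mice. Neutrophils carry Il1r2 and Csf2rb and respond to IL-4, and the part of these markers in the levels of Il1r2, Il4ra, Il1f9 and Csf2rb was not tested. Of 13 macrophage markers, 3 were higher, with a median log2 fold change of -0.0049 and sums of 855 to 1021 CPM in control mice and 855 to 1293 CPM in cachectic mice.

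Of 12 tested markers of T cells and innate lymphoid cells, Trac and Trbc2 were lower and 0 were higher, with a median log2 fold change of -1.12; the 14 listed markers summed to 66.1 to 86.1 CPM in control mice and 72.7 to 95.6 CPM in cachectic mice, most of it Rora. Of 6 tested mast cell markers, Mcpt4 (log2 fold change -2.57), Cpa3 (-1.33) and Cma1 were lower, and the 8 listed markers summed to 59.6 to 103 CPM in control mice and 37.5 to 87.3 CPM in cachectic mice. Of the other tested mast cell markers, Kit and Hdc had positive estimates (0.39 and 0.30) and Tpsb2 a negative 1 (-0.95), and none passed. Positive estimates were also found for 3 of the 12 T cell and innate lymphoid markers. Lymphocytes or mast cells carry Il2rb, Il9r, Il1rl1 and Il18r1, and the part of these markers in those levels was not tested. Among 10 markers of fibroblasts and progenitors, 4 were lower and 1 was higher, with sums of 5436 to 6221 CPM in control mice and 2532 to 3488 CPM in cachectic mice. Most of the fall in the sum came from the collagen genes Col3a1 (means of 2475 CPM in control and 272 CPM in cachectic mice) and Col1a1 (632 and 104 CPM). The 5 markers that did not pass included Dcn (2058 and 1976 CPM). Among 10 endothelial markers, 6 were higher and 0 lower. The part of the fibroblast, progenitor and endothelial markers in the levels of Il17d, Il33 and Il34 was not tested. Of 8 B cell markers, Ighm was lower and 0 were higher, and all 8 estimates were negative, with a median log2 fold change of -1.05. They summed to 421 to 527 CPM in control mice and 10.7 to 129.5 CPM in cachectic mice, most of it Ighm. Mesothelial markers (0 of 10 in either direction in edgeR, 1 at an unadjusted p under 0.05) completed the lists.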

How the data were processed

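RNA from eWAT of 3 control and 3 cachectic mice was read as paired ends of 150 bases. Per the methods, the authors filtered the reads, used Hisat2 for alignment and FeatureCounts for counting, and deposited raw counts per gene without normalization. They also deposited FPKM, computed by the authors from count and gene length. The submitters' processing notes list mm9, featureCounts 1.5.0-p3 and DESeq2 1.16.1, yet 98.7% of the interleukin entries found in GENCODE M21 (GRCm38) have the same coordinates there. Use of strand in counting was not given in the sources used here, so overlapping genes are uncertain. These include Il17rb, which overlaps Actr8 on the other strand, and Il7, which overlaps Gm16685 on the other strand. A deposited table of differential genes holds the authors' own fold changes and p-values and was not used.

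The raw counts were fitted with edgeR 4.0.16 under R 4.3.3, after its filterByExpr and TMM steps and with no covariates. P-values of its quasi-likelihood test were adjusted by Benjamini-Hochberg across 16003 genes, and genes under 0.05 passed. The biological coefficient of variation was 0.264, and with 3 mice per group it limits precision together with the depth. Scripts were tested on simulated counts. Alternatives were RLE factors, library totals, other filters, DESeq2 1.42.0, limma-voom and log2 FPKM (limma 3.58.1, pseudocount 1 or 0.1), protein-coding genes alone, a replicate block and each mouse left out. No pair of libraries had near-identical counts. Promoters came from RefSeq for 62 of the 79 genes.

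The interleukin genes, families and lists were chosen with earlier results of these data known. Genes were named if they passed, had the highest FPKM of their role in a family, pair with a gene that passed, or had groups without overlap and a log2 change of 1 or more in size. Of the other lists, up to 4 genes per direction that passed were named. Neighbors on the chromosome, Il20rb, Il17ra and genes given with a count of a few were named after their values were seen. So were Il18rap, Stat6, Arg1, Retnla, Kit, Hdc, Tpsb2, Cfd, Fabp4 and Plin1.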

Additional observations from a re-analysis of the deposited data

How the results depend on the processing

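None of 16 alternatives reversed a call, although the sign of genes that did not pass, Il20rb, Il17ra and Il1r1 among them, could change. Il4ra passed in all 16, Il17d in all 16 and Il1r2 in the 15 that tested it. The count of 4 higher interleukin genes became 1 when at least 10 counts were required in every sample, since fewer genes were then tested, and ranged from 2 (without control replicate 3) to 5 when each mouse was left out. The count of 4 lower genes ranged from 1 (without control replicate 3) to 3 when each mouse was left out, with 2 without control replicate 2 or cachexia replicate 2. The labels do not say whether replicate numbers pair mice. Deviations of same-numbered mice showed little correlation (0.01, -0.021 and 0.012), which cannot exclude a shared batch. With the replicate block 2 interleukin genes were lower and 4 higher, the lost calls being Il1rl2 (edgeR adjusted p = 0.0573) and Il9r (0.0724). Of the partner, signaling and target genes, the 8 higher became 6 to 10 and the 2 lower became 0 to 4 when each mouse was left out, with 0 lower without control replicate 2, control replicate 3 or cachexia replicate 3 and 4 without cachexia replicate 1; DESeq2 gave 4 lower and the replicate block 0. The cause of these moves was not tested. Control replicate 1, which stood apart for Il20rb, changed the calls of Il1f9, Il9r and Il13ra1 when left out. Library totals in place of TMM moved the median of all genes by 0.0498 on the log2 scale. Depth limits the genes near 1 CPM or below, among them Il9r and Il1f9.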

Other observations

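Control replicate 1 stood apart from the other control mice across genes. The chi-square per degree of freedom of its counts against control replicates 2 and 3 was 60.7 and 48.3, against 13.0 between those libraries. Pairs of cachectic mice were farther apart still, at 65.1, 64.3 and 83.6. Of the epithelial keratins, Krt8 was 94.7 CPM in it against 13.6 and 8.78 CPM, and Krt18 was 43.2 CPM against 4.41 and 2.95 CPM. Il20rb was 25.1 CPM there against 3.96 and 3.68 CPM, and Hdc, the histamine-forming enzyme, was 25.1 CPM against 2.52 and 3.57 CPM. Il22ra1 had 32 of its 40 control counts there. In cachectic mice Hdc was 9.92, 11.3 and 17.5 CPM. These genes were chosen after their values were seen.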
